A study of Arabidopsis thaliana with 39 samples.

Results

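The methylglyoxal (MG) response of the Arabidopsis thaliana glyoxalase I mutant glyI2 was set against that of wild type (WT). The measure is a difference of responses: the log2 change from mock to MG in glyI2 minus the same change in WT, for every gene. It rests on 12 of the 36 RNA libraries of the series, 3 in each of 4 groups: glyI2 given 200 µM MG for 12 h, glyI2 mock, WT given the same MG, and WT mock. All were poly(A)-enriched RNA of whole seedlings, 5 days old and grown on solid MS medium without any other agent, so levels are averages over all organs. The labels call the mutant glyI2 and name no allele, and they do not say whether replicates were separate cultures, so p-values here speak only of the spread among these libraries, part of which may be technical. A positive difference means that MG moved a gene further up, or less far down, in glyI2 than in WT.

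MG is a reactive dicarbonyl that arises mainly as a by-product of glycolysis and modifies proteins, nucleic acids and lipids. The glyoxalase pathway removes it. Glyoxalase I converts the MG adduct of glutathione into S-D-lactoylglutathione. Glyoxalase II then releases D-lactate and returns the glutathione, and D-lactate dehydrogenase of the mitochondrion oxidises the lactate. Plants carry several glyoxalase I and II genes, and DJ-1 proteins can turn MG into lactate without glutathione. The comparison asks how the transcript response to a given dose of MG differs when 1 glyoxalase I gene is impaired.

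The 12 libraries held 21313666 to 22116044 counts each. Counts of all 36 libraries entered edgeR's quasi-likelihood F test, and 20748 genes passed its expression filter. A gene is called here when its Benjamini-Hochberg adjusted p over those genes was under 0.05, and every adjusted p below comes from that test. Levels are CPM, counts scaled to library size, after TMM scaling, and log2 values carry a standard error (SE). Markers of leaf and root were both present: summed photosystem, antenna and Rubisco genes gave 65700 to 273000 CPM per library, and the root hair list was above 0 in all 12. One library stood furthest apart: in glyI2 mock replicate 3 the clock gene CCA1 was at 0.03 log2 CPM, against 4.24 to 6.09 in the other 11. TOC1 was at 6.16 there, against 4.09 to 4.91. WT MG replicate 2 also differed from its group. Its TMM factor of 0.76 and its 21899 genes with a count were the lowest of the 12. CCA1 was at 4.24 there, against 5.65 and 5.89 in its group mates. Calls lost or differences moved by over 1.5 times without glyI2 mock replicate 3 are given beside the gene or with the alternatives at the end.

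GLYI2 (AT1G08110) itself checked the labels. It stood at 7.93, 7.97 and 7.97 CPM in glyI2 MG and at 9.47, 8.98 and 5.35 CPM in glyI2 mock, against 61.4, 46.6 and 68.7 CPM in WT MG and 55.0, 58.2 and 70.6 CPM in WT mock. Every glyI2 library was below every WT library. Under MG the mutant was lower by a log2 change of −2.89 (adjusted p = 9.98e-10) and under mock by −2.95 (adjusted p = 4.1e-09). MG did not detectably move the gene in either genotype, and the difference in response was 0.07 ± 0.31 (adjusted p = 0.952).

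The mutant responded with many more called genes than WT. MG changed 6056 genes in glyI2 (29.2% of those tested; 2993 raised, 14.4%, and 3063 lowered, 14.8%) and 2215 in WT (10.7%; 1331 raised, 6.42%, and 884 lowered, 4.26%). Counts of raised or lowered list members below are to be read against these shares. The difference in response itself was called for 823 genes (3.97%), 512 of them higher in glyI2 (2.47%) and 311 lower (1.5%). Of these, 720 differed by at least 2-fold and 389 by at least 4-fold, with a median absolute log2 difference of 1.92. The median difference of all tested genes was −0.09, close to 0. A fit on the 12 libraries alone called 786 genes but split them as 594 higher and 192 lower, so the share that is higher, 62.2% here, was 75.6% there. The count was 534 without WT mock replicate 1, 514 without WT mock replicate 3, 514 without WT MG replicate 2 and 693 without glyI2 mock replicate 3. A fit without 7 libraries low in CCA1, all of them replicate 3 and glyI2 mock replicate 3 among them, called 1110 genes. Of these, 700 were shared with the 823 and all 700 kept their direction.

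**Figure D1:**
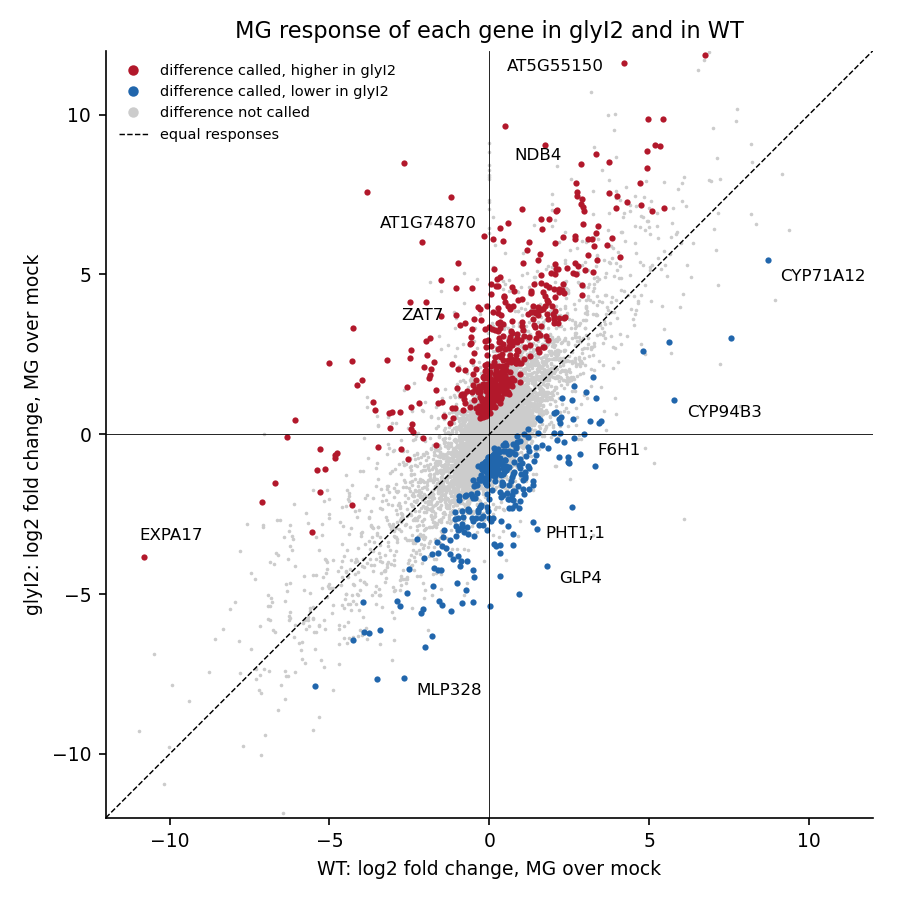
Each point is a tested gene, with its log2 fold change from mock to MG in WT on the horizontal axis and in glyI2 on the vertical axis. The 512 genes with a called higher difference (red) lie above the dashed line of equal responses and the 311 with a called lower one (blue) below it. The 3 genes beyond 12 log2 units on either axis are not drawn.

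Without MG few genes were called between the genotypes. Under mock 9 genes were called (0.0434%), 5 higher (0.0241%) and 4 lower (0.0193%) in glyI2, with GLYI2 among the lower ones. An unadjusted p under 0.05 was found for 359 of the 20748 genes, less than a share of 0.05. The test was thus cautious here, and a missing call does not show equal levels. Under MG 2965 genes were called (14.3%), 1739 higher (8.38%) and 1226 lower (5.91%) in glyI2. Of the 512 genes with a higher difference, 510 were higher in glyI2 under MG and not called under mock. Among the 311 with a lower difference, 304 were lower in glyI2 under MG and not called under mock. The difference and the comparison under MG share 6 libraries, so these counts only describe where the called genes stood. The count under MG rested in part on single libraries, at 1927 without WT MG replicate 2 and 1942 without glyI2 MG replicate 2.

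The called genes fell into several patterns, and the most frequent was the same in both directions: changed in glyI2 and not called in WT. Of the 512 higher genes, 320 were raised by MG in glyI2 and not called in WT, and 141 were raised in both genotypes and further in glyI2. Another 27 were lowered in WT and not called in glyI2, 16 were raised in glyI2 and lowered in WT, and 7 were lowered in both. Among the 311 lower genes, 195 were lowered in glyI2 and not called in WT, 42 were lowered in both and further in glyI2, and 40 were raised in WT and not called in glyI2. In 18 the gene was lowered in glyI2 and raised in WT, and in 12 it was raised in both but less in glyI2. Most genes that both genotypes changed went the same way, 1756 of 1790, and the other 34 went in opposite directions.

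The 24 genes of largest called difference, 12 in each direction and with average log2 CPM no lower than 1, fall into recognisable kinds. On the higher side AT5G55150, which the gene table leaves without a name, stood at 308, 224 and 230 CPM in glyI2 MG and at 0.109, 0 and 0.116 CPM in glyI2 mock, against 1.05, 0.742 and 0.976 CPM in WT MG and 0, 0.0472 and 0.0844 CPM in WT mock. The glyI2 MG group alone stood high. Its difference of 7.41 ± 2.14 (adjusted p = 0.0459) rests on mock groups of 5 and 3 counts in all, so the fitted size is not a firm one, and the call was lost without any 1 of 11 libraries, all but WT mock replicate 1 (adjusted p up to 0.418 without WT mock replicate 3). The difference under MG does not depend on those counts, at 8.09 (adjusted p = 9.89e-11). AT1G74870, also unnamed, was at 65.7, 66.8 and 64.3 CPM in glyI2 MG and at 0.602, 0.447 and 1.12 CPM in glyI2 mock, against 0.666, 0.185 and 0.891 CPM in WT MG and 0.320, 0.283 and 0.802 CPM in WT mock. MG raised it in glyI2 and no change was detected in WT, and the difference was 6.12 ± 0.70 (adjusted p = 2.24e-06). It overlaps AT1G74875 in the gene table, and no source used here says whether reads were counted by strand. AT4G12735 differed by 4.91 ± 0.87 (adjusted p = 0.000818) and AT2G44578 by 4.89 ± 1.00 (adjusted p = 0.00358), each raised by MG in both genotypes and further in glyI2.

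Other genes on the higher side need care. IDA, which encodes a secreted signalling peptide of floral organ abscission, had 40.3, 32.5 and 28.8 CPM in glyI2 MG and 0.383, 0.0447 and 0.116 CPM in glyI2 mock, against 0.808, 0.989 and 1.27 CPM in WT MG and 0.183, 0 and 0.253 CPM in WT mock. The glyI2 MG libraries were far above the other 9. The difference of 4.85 ± 1.25 (adjusted p = 0.0223) was no longer called without WT mock replicate 1 (adjusted p = 0.097), WT mock replicate 3 (0.229) or glyI2 mock replicate 3 (0.0519). AT2G18190 lost its call without 5 libraries in turn (WT mock 1 and 3, glyI2 mock 1 and 2, glyI2 MG 1), with adjusted p up to 0.572, and its difference of 5.44 became 8.94 without glyI2 mock replicate 3. TAT3, a tyrosine aminotransferase gene of the jasmonate response, lost it without 5 (WT mock 2, WT MG 1 and 3, glyI2 mock 1, glyI2 MG 1), and its difference of 5.09 was 1.56 without WT mock replicate 2. EXPA17, an expansin gene, was lowered by MG in both genotypes, to 14, 11 and 7 counts in glyI2 and to 0 counts in all 3 WT libraries, so it stands on the higher side. Its call was lost without 9 of the 12 libraries, all but WT mock 2, glyI2 mock 1 and glyI2 MG 3 (adjusted p up to 0.0943). AT2G43880 was also lowered in both, with 12, 11 and 15 counts in glyI2 MG against 1, 0 and 0 in WT MG, and its call was lost without WT MG replicate 2 or 3 (adjusted p = 0.0583 each). The 18S ribosomal RNA gene AT2G01010 had 0, 9127 and 2976 counts in glyI2 MG, 0 in all glyI2 mock libraries, 4, 5 and 1 counts in WT MG and 2, 2 and 5021 in WT mock, so uneven a spread within groups that its fitted difference is not given.

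**Figure D2:**
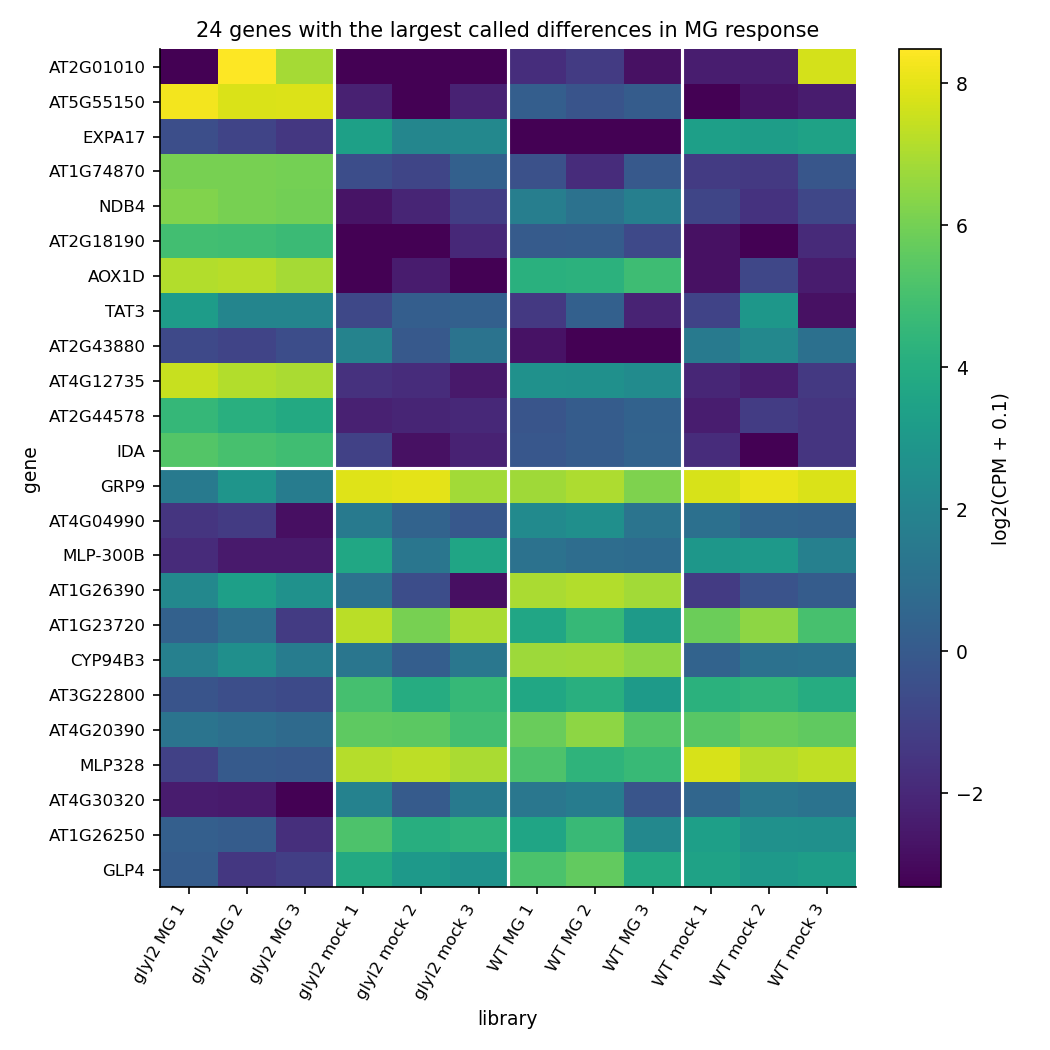
Colour shows log2(CPM + 0.1) in each of the 12 libraries for the 12 genes of largest higher difference (above the white line) and the 12 of largest lower difference (below it). Most upper genes are bright in the 3 glyI2 MG libraries alone, while the lower genes are dark there and brighter in WT MG.

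Mitochondrial stress genes showed the highest share of called members of any list examined. This group holds the alternative oxidases and external NAD(P)H dehydrogenases, which pass electrons around the proton-pumping complexes, and genes induced when mitochondrial function is disturbed. Of its 13 tested genes 7 were higher in glyI2 and none lower (53.8%, against 3.97% of all genes), and the median difference was 1.46. MG raised 11 of the 13 in glyI2 and 9 in WT. Leaving out any 1 of the 12 libraries left 5 to 7 called.

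NDB4, an external NAD(P)H dehydrogenase gene, was at 75.9, 67.6 and 62.3 CPM in glyI2 MG and at 0.0547, 0.134 and 0.349 CPM in glyI2 mock, against 3.23, 2.1 and 3.31 CPM in WT MG and 0.457, 0.236 and 0.464 CPM in WT mock. WT also raised it, to a level far below that of glyI2. The difference was 5.56 ± 0.71 (adjusted p = 9.99e-06), and 6.50 without glyI2 mock replicate 3. AOX1A, the main alternative oxidase gene of leaves, was at 529, 590 and 565 CPM in glyI2 MG and at 33.9, 29.5 and 19.2 CPM in glyI2 mock, against 251, 224 and 272 CPM in WT MG and 33.8, 31.8 and 34.9 CPM in WT mock. MG raised it strongly in both genotypes, and the difference was 1.46 ± 0.35 (adjusted p = 0.0153). Without glyI2 mock replicate 3, the lowest library, the difference was 1.25 and was not called (adjusted p = 0.0573), whereas without all 7 low-CCA1 libraries it was called at 1.29 (adjusted p = 0.00776).

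The other members called were of the same kind. OM66, which encodes an AAA-type ATPase of the outer mitochondrial membrane, was at 235, 264 and 276 CPM in glyI2 MG and at 1.59, 2.99 and 5.19 CPM in glyI2 mock, against 32.4, 14.1 and 45.4 CPM in WT MG and 2.93, 3.3 and 2.91 CPM in WT mock. All glyI2 MG libraries exceeded all WT MG libraries, as in 510 of the 512 higher genes (99.6%), and the difference was 2.96 ± 0.63 (adjusted p = 0.00496). NAC013, a transcription factor gene of mitochondrial retrograde signalling, differed by 2.31 ± 0.35 (adjusted p = 0.000103) and NDB2 by 1.52 ± 0.34 (adjusted p = 0.00824). NAC013 overlaps AT1G32880 in the gene table. UPOX differed by 2.43 ± 0.63 (adjusted p = 0.0229), a call that ended without WT mock replicate 3 (adjusted p = 0.0746), WT MG replicate 2 (0.0568) or glyI2 mock replicate 1 (0.0751). AOX1D, a stress-induced alternative oxidase gene, had 139, 147 and 117 CPM in glyI2 MG, against 17.9, 19.0 and 27.8 CPM in WT MG, while glyI2 mock held 0, 2 and 0 counts and WT mock 1, 10 and 2. Under MG it was higher in glyI2 by 2.64 (adjusted p = 0.00016). The fitted difference of 5.13 depends on those few mock counts and was lost without WT mock replicate 2 (adjusted p = 0.324), glyI2 mock replicate 1 (0.0514) or glyI2 mock replicate 3 (0.062). Without glyI2 mock replicate 2 it was 7.78.

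**Figure D3:**
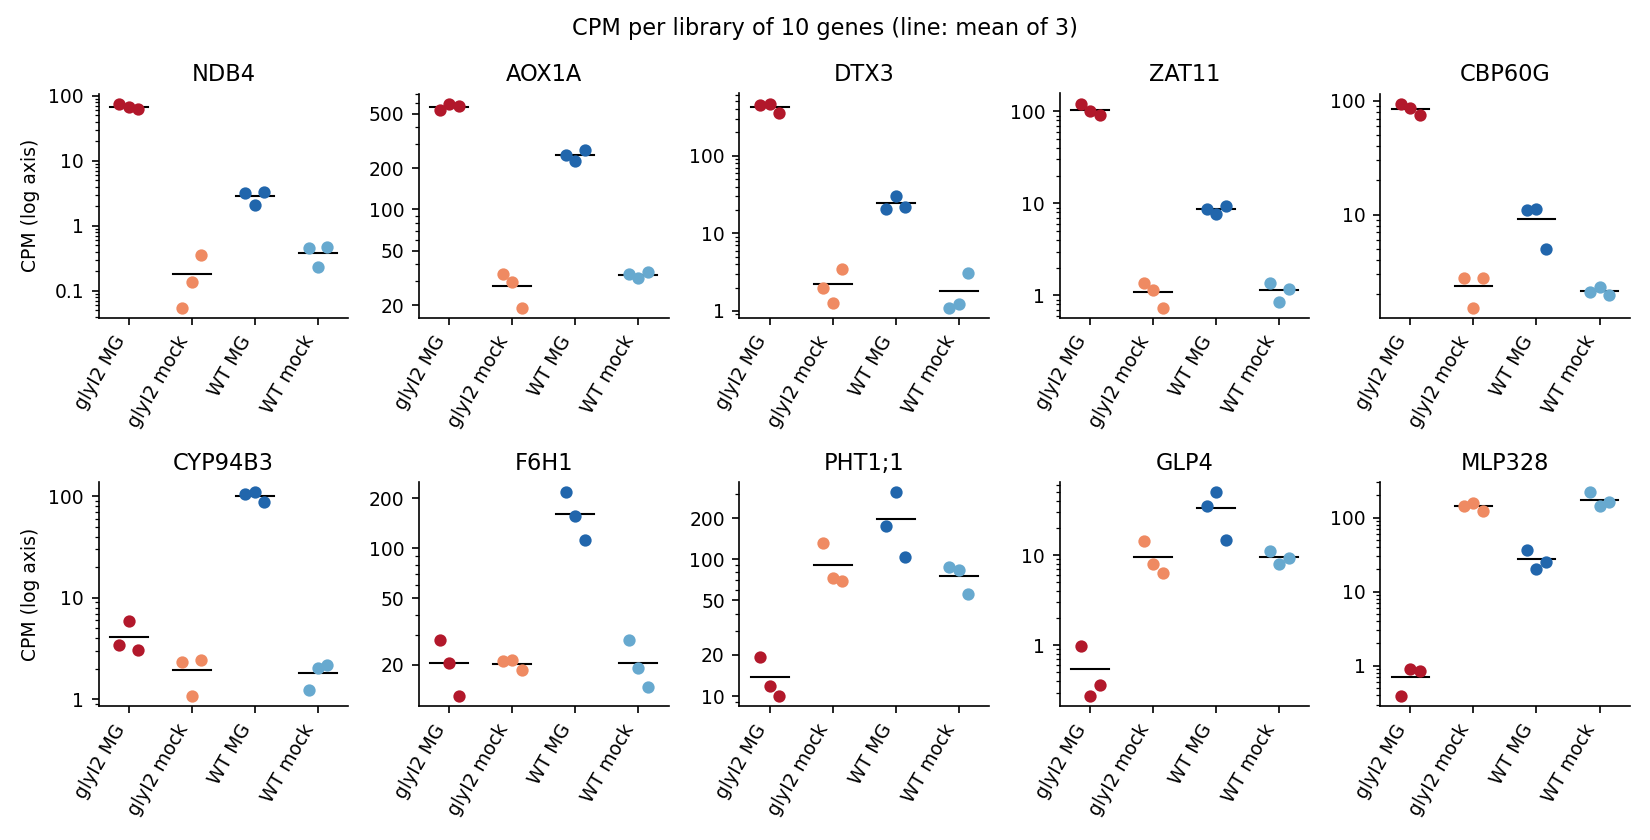
CPM per library on a log axis for 10 genes, with points for the 3 libraries of each group and a line at their mean. In the upper row glyI2 MG stands above WT MG in every panel (NDB4 62.3 to 75.9 against 2.1 to 3.31 CPM), and in the lower row it stands below (CYP94B3 3.04 to 5.86 against 88.0 to 110 CPM).

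Genes that conjugate and export foreign and reactive compounds went the same way. The list of UDP-glucosyltransferases, CYP81D cytochromes P450 and efflux carriers had 6 of 16 tested members higher and none lower (37.5%), with a median difference of 1.5. MG raised 15 of the 16 in glyI2 and 11 in WT. The count was 3 without WT mock replicate 3 and 2 without WT MG replicate 2. DTX3, a MATE-type efflux carrier gene, was at 455, 466 and 351 CPM in glyI2 MG and at 1.97, 1.25 and 3.45 CPM in glyI2 mock, against 20.6, 30.2 and 22.1 CPM in WT MG and 1.1, 1.23 and 3.08 CPM in WT mock. The genotypes separated widely under MG and overlapped under mock. Its difference was 3.82 ± 0.73 (adjusted p = 0.00198), and its near-identical neighbour DTX4 could share reads with it. UGT73C1, a glucosyltransferase gene, was at 40.3, 57.0 and 45.9 CPM in glyI2 MG, against 3.28, 4.76 and 2.93 CPM in WT MG. MG raised it in glyI2 without a detected change in WT, for a difference of 3.43 ± 0.65 (adjusted p = 0.00179; 4.30 without glyI2 mock replicate 3). UGT74E2, whose product glucosylates the auxin indole-3-butyric acid, was raised in both genotypes and reached 819, 862 and 755 CPM in glyI2 MG against 227, 162 and 213 CPM in WT MG. Its difference was 1.90 ± 0.46 (adjusted p = 0.0161; 0.0537 without WT MG replicate 2). CYP81D11 differed by 1.59 ± 0.38 (adjusted p = 0.0132), a call that ended without WT mock replicate 3 (0.0525) or WT MG replicate 2 (0.0515), and AT3G28730 overlaps it. CYP81D8 and UGT73B5 were the least secure of the 6, the first losing its call without 10 of the 12 libraries (all but WT MG 3 and glyI2 mock 1; adjusted p up to 0.105) and the second without 9 (all but WT mock 2, WT MG 3 and glyI2 MG 2; up to 0.142).

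Tau and phi glutathione transferases, which attach glutathione to electrophiles, were raised by MG in 18 of 35 cases in glyI2 and 17 in WT. In the difference 2 were called higher and none lower (5.71%, median 0.17). GSTU9 was at 248, 213 and 175 CPM in glyI2 MG and at 6.46, 7.82 and 5.15 CPM in glyI2 mock, against 36.2, 22.2 and 27.3 CPM in WT MG and 6.36, 7.03 and 9.07 CPM in WT mock. The spread between libraries was small beside the gap, and the difference was 3.1 ± 0.29 (adjusted p = 9.95e-08). GSTU2 differed by 3.27 ± 0.47 (adjusted p = 5.6e-05). It has a near-identical paralog, GSTU1, and overlaps AT2G29485. The sulfotransferase gene SOT12 was among the 10 genes of lowest p on the higher side, a set picked after its values were seen. It reached 650, 485 and 559 CPM in glyI2 MG against 84.5, 76.4 and 80.1 CPM in WT MG, with a difference of 2.96 ± 0.30 (adjusted p = 4.61e-07).

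Zinc-finger and DREB transcription factor genes of abiotic stress were the next group. Of 16 tested, 6 were higher in glyI2 and none lower (37.5%), the median difference was 0.94, and leaving out single libraries left 5 or 6. MG raised 14 in glyI2, against 10 raised and 1 lowered in WT. ZAT11 was at 121, 100 and 91.3 CPM in glyI2 MG and at 1.37, 1.16 and 0.736 CPM in glyI2 mock, against 8.80, 7.66 and 9.42 CPM in WT MG and 1.37, 0.849 and 1.18 CPM in WT mock. The mock groups overlapped while the MG groups lay about an order of magnitude apart, and the difference was 3.67 ± 0.48 (adjusted p = 1.54e-05). DREB2B, a drought- and heat-responsive activator gene, had 67.5, 55.0 and 70.5 CPM in glyI2 MG, against 3.52, 2.47 and 2.84 CPM in WT MG, for a difference of 3.92 ± 0.74 (adjusted p = 0.00163; 4.67 without glyI2 mock replicate 3). It overlaps AT3G11030. ZAT7 was raised in glyI2 alone at the test, to 11.3, 8.20 and 9.73 CPM in glyI2 MG, against 0.999, 0.309 and 0.679 CPM in WT MG. Its difference was 3.84 ± 0.69 (adjusted p = 0.000924). ZAT18 differed by 3.92 ± 0.86 (adjusted p = 0.00639). ZAT8, a close paralog of ZAT7, differed by 3.68 ± 0.87 (adjusted p = 0.0129), a call that ended without WT mock replicate 3 (0.0963), while the difference was 4.31 without glyI2 mock replicate 3. AZF1 moved in opposite directions: MG raised it by 0.83 in glyI2 and lowered it by −1.18 in WT, a difference of 2.01 ± 0.40 (adjusted p = 0.00258).

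WRKY factor genes, many of them induced in defence, were broadly raised by MG, 19 of 22 in glyI2 and 10 in WT. Of all tested genes MG raised 14.4% in glyI2 and 6.42% in WT. The difference was called for 5 of the 22, all higher (22.7%), and the median difference was 0.96. That count was unsteady, at 8 without the 7 low-CCA1 libraries, 3 without glyI2 mock replicate 3, 2 without WT MG 2, glyI2 mock 2 or glyI2 MG 2, and 1 without WT mock replicate 1. WRKY30 was the member that held in all of these, at 13.1, 11.8 and 12.8 CPM in glyI2 MG and 0.383, 0.625 and 0.465 CPM in glyI2 mock, against 0.713, 0.185 and 0.722 CPM in WT MG and 0.686, 0.330 and 0.380 CPM in WT mock. MG raised it in glyI2, and in WT no change was detected. The difference was 4.40 ± 0.67 (adjusted p = 0.00013). The other 4 were WRKY6, WRKY8, WRKY17 and WRKY25, with differences of 1.03, 2.27, 1.09 and 1.43. Without glyI2 mock replicate 3, WRKY8 (adjusted p = 0.0659) and WRKY17 (0.0586) were not called. Among stress NAC genes only NAC102 was called, 1 of 13 (7.69%). It stood at 643, 636 and 631 CPM in glyI2 MG, against 219, 127 and 234 CPM in WT MG, and differed by 1.79 ± 0.39 (adjusted p = 0.00556), with AT5G63780 overlapping it. BZIP60, a transcription factor gene of the unfolded protein response, was called as well, 1 of 17 in its list (5.88%). It reached 459, 350 and 347 CPM in glyI2 MG, against 99.2, 111 and 82.0 CPM in WT MG, for a difference of 2.00 ± 0.39 (adjusted p = 0.00229).

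Of 19 salicylic acid and defence genes tested, MG raised 10 and lowered 1 in glyI2 and raised 1 in WT. Of all tested genes it raised 14.4% in glyI2 and 6.42% in WT. In the difference 3 of the 19 were higher and none lower (15.8%, median 0.90). CBP60G, a transcription factor gene that drives salicylic acid synthesis, was at 94.6, 87.3 and 75.2 CPM in glyI2 MG and at 2.79, 1.52 and 2.79 CPM in glyI2 mock, against 11.1, 11.2 and 4.97 CPM in WT MG and 2.1, 2.31 and 1.98 CPM in WT mock. WT raised it too, to a far lower level, and the difference was 3.09 ± 0.43 (adjusted p = 3.67e-05). Its partner SARD1 rose in glyI2 without a detected change in WT and differed by 2.39 ± 0.60 (adjusted p = 0.018), a call that ended without WT mock replicate 2 (0.0904), WT MG replicate 3 (0.052) or glyI2 mock replicate 1 (0.0561). AT1G73790 overlaps SARD1. PBS3, an enzyme gene of salicylic acid synthesis, had 2.15, 4.45 and 10.4 CPM in glyI2 MG, against 0.285, 0.618 and 0.127 CPM in WT MG, and differed by 4.09 ± 0.98 (adjusted p = 0.0135; 0.0959 without WT mock replicate 2). Without that library 1 of the 3 remained called. PEPR1, the receptor gene of danger-signalling Pep peptides, and AGC2-1, an oxidative-signal kinase gene also known as OXI1, were again among the 10 genes of lowest p. PEPR1 was at 103, 122 and 99.9 CPM in glyI2 MG against 33.0, 30.8 and 36.3 CPM in WT MG, a difference of 1.81 ± 0.20 (adjusted p = 8.52e-07). AGC2-1 was at 193, 195 and 178 CPM in glyI2 MG against 29.6, 24.3 and 29.5 CPM in WT MG, a difference of 2.51 ± 0.27 (adjusted p = 7.59e-07).

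Other hormone genes moved in both directions. Ethylene genes had 3 of 25 members higher (12.0%, median 0.39), ACS2, ERF2 and ERF13. ACS2, a rate-setting enzyme gene of ethylene synthesis, was at 52.0, 63.3 and 58.3 CPM in glyI2 MG, against 14.1, 9.45 and 16.9 CPM in WT MG. Its difference was 2.24 ± 0.57 (adjusted p = 0.0205), lost without WT mock replicate 1 (0.0767), WT MG replicate 2 (0.0648) or glyI2 mock replicate 3 (0.0643). The list's count was 1 without WT mock 2, WT MG 2, glyI2 mock 1 or 2, or glyI2 MG 1 or 3, and 6 without the 7 low-CCA1 libraries. Auxin genes split evenly, 2 higher and 2 lower of 27 (14.8%, median −0.18). GH3.2, which encodes an enzyme that conjugates auxin to amino acids, was at 71.3, 68.4 and 64.4 CPM in glyI2 MG, against 10.6, 12.5 and 10.7 CPM in WT MG, and differed by 2.64 ± 0.41 (adjusted p = 0.000154). GH3.3, of the same family, differed by 2.27 ± 0.48 (adjusted p = 0.00469). On the lower side were LAX3, an auxin influx carrier gene, at −0.996 ± 0.20 (adjusted p = 0.00287), and the auxin synthesis gene YUC9 at −2.2 ± 0.46 (adjusted p = 0.00404). The LAX3 call was lost when the fit held the 12 libraries alone (adjusted p = 0.0696).

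Jasmonate genes included a case in which WT responded strongly and glyI2 weakly. CYP94B3, whose product oxidises and so inactivates jasmonoyl-isoleucine, was at 3.45, 5.86 and 3.04 CPM in glyI2 MG and at 2.35, 1.07 and 2.44 CPM in glyI2 mock, against 106, 110 and 88.0 CPM in WT MG and 1.24, 2.03 and 2.19 CPM in WT mock. MG raised it by a log2 change of 1.07 in glyI2 (adjusted p = 0.0428) and by 5.79 in WT (adjusted p = 2.31e-10). The difference was −4.72 ± 0.57 (adjusted p = 5.14e-06). LOX4, a lipoxygenase gene of jasmonate synthesis, went the other way, at 28.7, 40.5 and 23.4 CPM in glyI2 MG against 4.76, 5.31 and 4.12 CPM in WT MG, a difference of 2.37 ± 0.51 (adjusted p = 0.00556). In all 2 of 25 jasmonate genes were higher and 1 lower (12.0%, median −0.05). The second higher one, MYC2, the master transcription factor gene of the pathway, differed by 0.88 ± 0.25 (adjusted p = 0.0434) and lost its call without 9 of the 12 libraries, all but WT mock 3, WT MG 2 and glyI2 mock 1 (adjusted p up to 0.128).

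Other genes were also lower in glyI2 than in WT under MG. F6H1, which encodes the entry enzyme of coumarin synthesis, was at 28.0, 20.4 and 12.9 CPM in glyI2 MG and at 20.9, 21.3 and 18.5 CPM in glyI2 mock, against 218, 156 and 112 CPM in WT MG and 28.0, 19.0 and 14.7 CPM in WT mock. Only the WT MG group stood apart. The log2 change was 0.02 in glyI2 (adjusted p = 0.973) and 2.98 in WT (adjusted p = 1.87e-08), a difference of −2.96 ± 0.40 (adjusted p = 2.62e-05). AT3G13620 overlaps it in the gene table. CYP71A12, which encodes an enzyme of indolic defence compounds close to CYP71A13, was at 44.7, 46.6 and 26.9 CPM in glyI2 MG and 1.53, 0.625 and 0.620 CPM in glyI2 mock, against 644, 426 and 441 CPM in WT MG and 0.869, 2.17 and 0.549 CPM in WT mock. MG raised it in both genotypes, and the difference was −3.28 ± 0.79 (adjusted p = 0.0145), lost without WT mock replicate 3 (0.0546) or glyI2 mock replicate 1 (0.0872). AT1G26390 showed the same form, with 4.44, 10.1 and 6.13 CPM in glyI2 MG, against 128, 137 and 116 CPM in WT MG. Its difference was −4.53 ± 1.18 (adjusted p = 0.0235), lost without WT mock 1 or 2, glyI2 mock 1, or glyI2 MG 1 or 3 (adjusted p up to 0.298), and −5.17 without glyI2 mock 3. XTH23, a xyloglucan-modifying enzyme gene of the cell wall, was at 38.6, 18.1 and 39.5 CPM in glyI2 MG against 103, 91.6 and 103 CPM in WT MG, and differed by −2.2 ± 0.51 (adjusted p = 0.00988). NANA, an aspartic protease gene among the 10 of lowest p on the lower side, moved in opposite directions, by −0.90 in glyI2 (adjusted p = 0.013) and 2.51 in WT (adjusted p = 1.75e-07). It was at 15.8, 14.8 and 12.1 CPM in glyI2 MG against 123, 150 and 77.8 CPM in WT MG.

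A further set fell steeply in glyI2. GLP4, a germin-like protein gene, was at 0.991, 0.273 and 0.361 CPM in glyI2 MG and at 14.3, 7.95 and 6.28 CPM in glyI2 mock, against 34.8, 49.6 and 14.5 CPM in WT MG and 11.2, 7.88 and 9.33 CPM in WT mock. MG lowered it in glyI2 by −4.13 and raised it in WT by 1.8, and the difference was −5.93 ± 0.74 (adjusted p = 7.67e-06), with AT1G18975 overlapping it. AT4G20390 was at 2.2, 1.88 and 1.6 CPM in glyI2 MG, against 54.2, 87.9 and 39.7 CPM in WT MG. With no detected change in WT its difference was −4.76 ± 0.58 (adjusted p = 5.14e-06), and it overlaps AT4G20380. DOX1, an alpha-dioxygenase gene of fatty acid oxidation, had the lowest p of all lower genes, a choice made on its value. It was at 26.2, 16.6 and 20.5 CPM in glyI2 MG and at 311, 221 and 173 CPM in glyI2 mock, against 524, 411 and 418 CPM in WT MG and 264, 218 and 335 CPM in WT mock. The fall was in glyI2 alone at the test, and the difference was −4.21 ± 0.41 (adjusted p = 1.81e-07). GRP9, a glycine-rich protein gene, differed by −4.35 ± 0.65 (adjusted p = 8.54e-05). MLP328, a major latex protein-like gene with the close paralog MLP329, fell in both genotypes and further in glyI2, to 0.388, 0.899 and 0.841 CPM in glyI2 MG, against 36.5, 20.5 and 25.0 CPM in WT MG. Its difference was −4.95 ± 0.53 (adjusted p = 8.52e-07).

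The remaining 6 genes of the 12 largest lower differences were AT1G26250 (−5.93), AT4G30320 (−5.38), AT3G22800 (−4.73), AT1G23720 (−4.66), the myrosinase-binding-like gene MLP-300B (−4.53) and AT4G04990 (−4.47). Each was lower in all 3 glyI2 MG libraries than in any WT MG library, as were 305 of all 311 lower genes (98.1%). None of the 6 lost its call when a library was left out. AT4G04990 was raised in WT by 1.51 and lowered in glyI2 by −2.96.

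No nutrient uptake list had more than 2 called genes, too few to read its share against the 3.97% of all tested genes. PHT1;1, a high-affinity phosphate transporter gene of the root surface, was at 19.2, 11.9 and 9.97 CPM in glyI2 MG and at 132, 72.8 and 69.2 CPM in glyI2 mock, against 174, 309 and 103 CPM in WT MG and 87.2, 83.6 and 55.3 CPM in WT mock. It fell in glyI2 by −2.74 and rose in WT by 1.37, a difference of −4.11 ± 0.61 (adjusted p = 8.54e-05). The related PHT1;2 may share its reads. Of 18 phosphate starvation genes 2 were lower and none higher (11.1%, median −0.85; −0.24 without glyI2 mock replicate 3). The other one, PHT1;4, differed by −1.22 (adjusted p = 0.0456) and lost its call without 8 of the 12 libraries, all but WT mock 1, WT MG 3 and glyI2 mock 2 and 3, and under RLE scaling, without the filter, in the fit on 12 libraries and without the 7 low-CCA1 libraries. In iron uptake and coumarin synthesis 1 of 27 was higher and 1 lower (7.41%, median −0.42). The higher one, FIT, the main regulator gene of iron uptake, differed by 1.65 ± 0.45 (adjusted p = 0.0318), a call that ended without 8 libraries, all but WT mock 2, glyI2 mock 2 and glyI2 MG 2 and 3 (adjusted p up to 0.0948). HRS1, a regulator gene of nitrate and phosphate signalling, was the 1 lower gene of 14 in nitrate uptake (7.14%), at −1.73 ± 0.42 (adjusted p = 0.0161; 0.0670 to 0.0896 without WT MG 2, glyI2 MG 2 or glyI2 MG 3).

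Markers of root cells and of green tissue were measured in the same libraries. The summed CPM of the 9 root hair genes had a lowest, median and highest library of 4.77, 10.3 and 11.7 in glyI2 MG and 45.7, 166 and 182 in glyI2 mock, against 6.83, 11.8 and 20.3 in WT MG and 58.7, 73.9 and 119 in WT mock. MG lowered 8 of the 9 in each genotype, none was called in the difference, and PRP3 was at 0 in all 3 glyI2 MG libraries. The 20 endodermis and suberin genes summed to 328, 361 and 395 CPM in glyI2 MG and 359, 419 and 456 CPM in glyI2 mock, against 528, 547 and 661 CPM in WT MG and 361, 389 and 400 CPM in WT mock. Under MG the suberin sums did not overlap between genotypes, with CYP86A1 the 1 member called, lower at −2.03 (adjusted p = 0.0204; up to 0.0852 without WT mock 1 or 3, WT MG 2, glyI2 mock 1 or glyI2 MG 1 or 2, each of which ended the call). For the 34 photosystem, antenna and Rubisco genes the sums were 93700, 124000 and 144000 CPM in glyI2 MG. They were 65700, 153000 and 256000 in glyI2 mock, 152000, 194000 and 273000 in WT MG and 156000, 174000 and 192000 in WT mock. Under MG these sums did not overlap between genotypes either, and none of the 34 was called in the difference. The part of cell composition in the differences was not tested, and in whole seedlings fewer cells of a type and less RNA per cell cannot be told apart.

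In the glyoxalase pathway 1 gene was called in the difference. Of 10 tested glyoxalase I homologues none was higher and 1 lower (10%, median −0.15), and of the 12 glyoxalase II, DJ-1 and D-lactate dehydrogenase genes none was called (median −0.50). On the per-length scale, GLYI3, GLYI6 and GLYI10 stood highest among the glyoxalase I homologues. GLYI3 was at 125 ± 24.4 FPKM in glyI2 MG and 123 ± 32.7 in glyI2 mock, against 121 ± 12.7 in WT MG and 130 ± 15.8 in WT mock (mean ± SD, n = 3). Its difference was −0.17 ± 0.30 (adjusted p = 0.845). GLYI6 was the called gene, at 142, 136 and 143 CPM in glyI2 MG and 197, 182 and 195 CPM in glyI2 mock, against 217, 244 and 194 CPM in WT MG and 177, 200 and 171 CPM in WT mock. The MG groups did not overlap, as in 98.1% of the called lower genes, and the difference was −0.71 ± 0.19 (adjusted p = 0.0284). That call was lost under RLE scaling, without the expression filter, in the fit on 12 libraries and without any of 8 single libraries, all but WT mock 2, WT MG 1 and 3 and glyI2 mock 2 (adjusted p up to 0.109). GLYI10 was raised by 0.59 in glyI2 (adjusted p = 0.0248) and by 0.04 in WT (adjusted p = 0.973), with a difference of 0.55 ± 0.28 (adjusted p = 0.320). GLYI4 fell by −3.00 in glyI2 (adjusted p = 3.71e-06) and its log2 change in WT was −1.20 (adjusted p = 0.0547), with a difference of −1.8 ± 0.57 (adjusted p = 0.0767).

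DJ1E, a DJ-1 family gene, responded most in the second branch. It was at 83.1, 79.9 and 81.7 CPM in glyI2 MG and 37.5, 40.6 and 35.7 CPM in glyI2 mock, against 134, 160 and 110 CPM in WT MG and 39.5, 40.8 and 27.3 CPM in WT mock. MG raised it in both genotypes, and the difference of −0.81 ± 0.24 missed the threshold (adjusted p = 0.0554). DJ1A was raised in WT by 0.55 (adjusted p = 0.00865) and its change in glyI2 was 0.05 (adjusted p = 0.821). Its difference was −0.50 ± 0.20 (adjusted p = 0.188), so a difference between the genotypes was not shown. D-LDH, the D-lactate dehydrogenase gene, was lowered in glyI2 by −0.51 (adjusted p = 0.0231) with a difference of −0.51 ± 0.24 (adjusted p = 0.262). GLYI1 did not pass the expression filter.

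Enzymes that reduce or oxidise reactive carbonyls were called lower in 4 of 23 cases and higher in 1 (21.7%, median −0.31), a split that was 2 and 2 under RLE scaling. ALDH3H1, an aldehyde dehydrogenase gene, was at 28.0, 29.3 and 31.1 CPM in glyI2 MG and 36.8, 29.5 and 37.6 CPM in glyI2 mock, against 58.7, 63.5 and 62.4 CPM in WT MG and 34.0, 34.9 and 32.6 CPM in WT mock. WT raised it and glyI2 did not, for a difference of −1.09 ± 0.16 (adjusted p = 8.79e-05). It overlaps AT1G44160, which was also called lower. The other 3, ALDH10A8 (−0.86), ALDH2B7 (−0.94) and the alcohol dehydrogenase gene ADH1 (−1.44), were less secure, and ADH1 was at −1.26 (adjusted p = 0.102) without glyI2 mock replicate 3. The count of lower members was 2 without the 7 low-CCA1 libraries, 1 in the fit on 12 libraries, and 1 without WT mock replicate 3, WT MG replicate 2 or glyI2 MG replicate 3. OPR2, an oxophytodienoate reductase gene, was the higher member, at 1.15 ± 0.27 (adjusted p = 0.0115), and it overlaps AT1G76680 and AT1G76700.

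Of 19 antioxidant genes, 1 was called higher and 1 lower (10.5%, against 3.97% of all tested genes, median −0.20). MDAR3, a monodehydroascorbate reductase gene, was at 46.7, 26.1 and 29.7 CPM in glyI2 MG and 18.0, 8.58 and 12.2 CPM in glyI2 mock, against 4.85, 4.02 and 3.48 CPM in WT MG and 13.7, 13.9 and 11.4 CPM in WT mock. It rose in glyI2 by 1.40 and fell in WT by −1.66, a difference of 3.06 ± 0.44 (adjusted p = 5.43e-05). RBOHC, a root hair NADPH oxidase gene, was lower, at −2.81 ± 0.57 (adjusted p = 0.00348; −2.22 without glyI2 mock replicate 3). In sulfate assimilation and glutathione synthesis MG raised 12 of 19 genes in each genotype, and GGCT2;1 and APR3 were higher in the difference (10.5%). Both calls depended on single libraries: none of the 19 was called without WT mock replicate 2, and 5 were without glyI2 mock replicate 2. APR3 was not called without glyI2 mock replicate 3 (adjusted p = 0.0904).

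**Figure D4:**
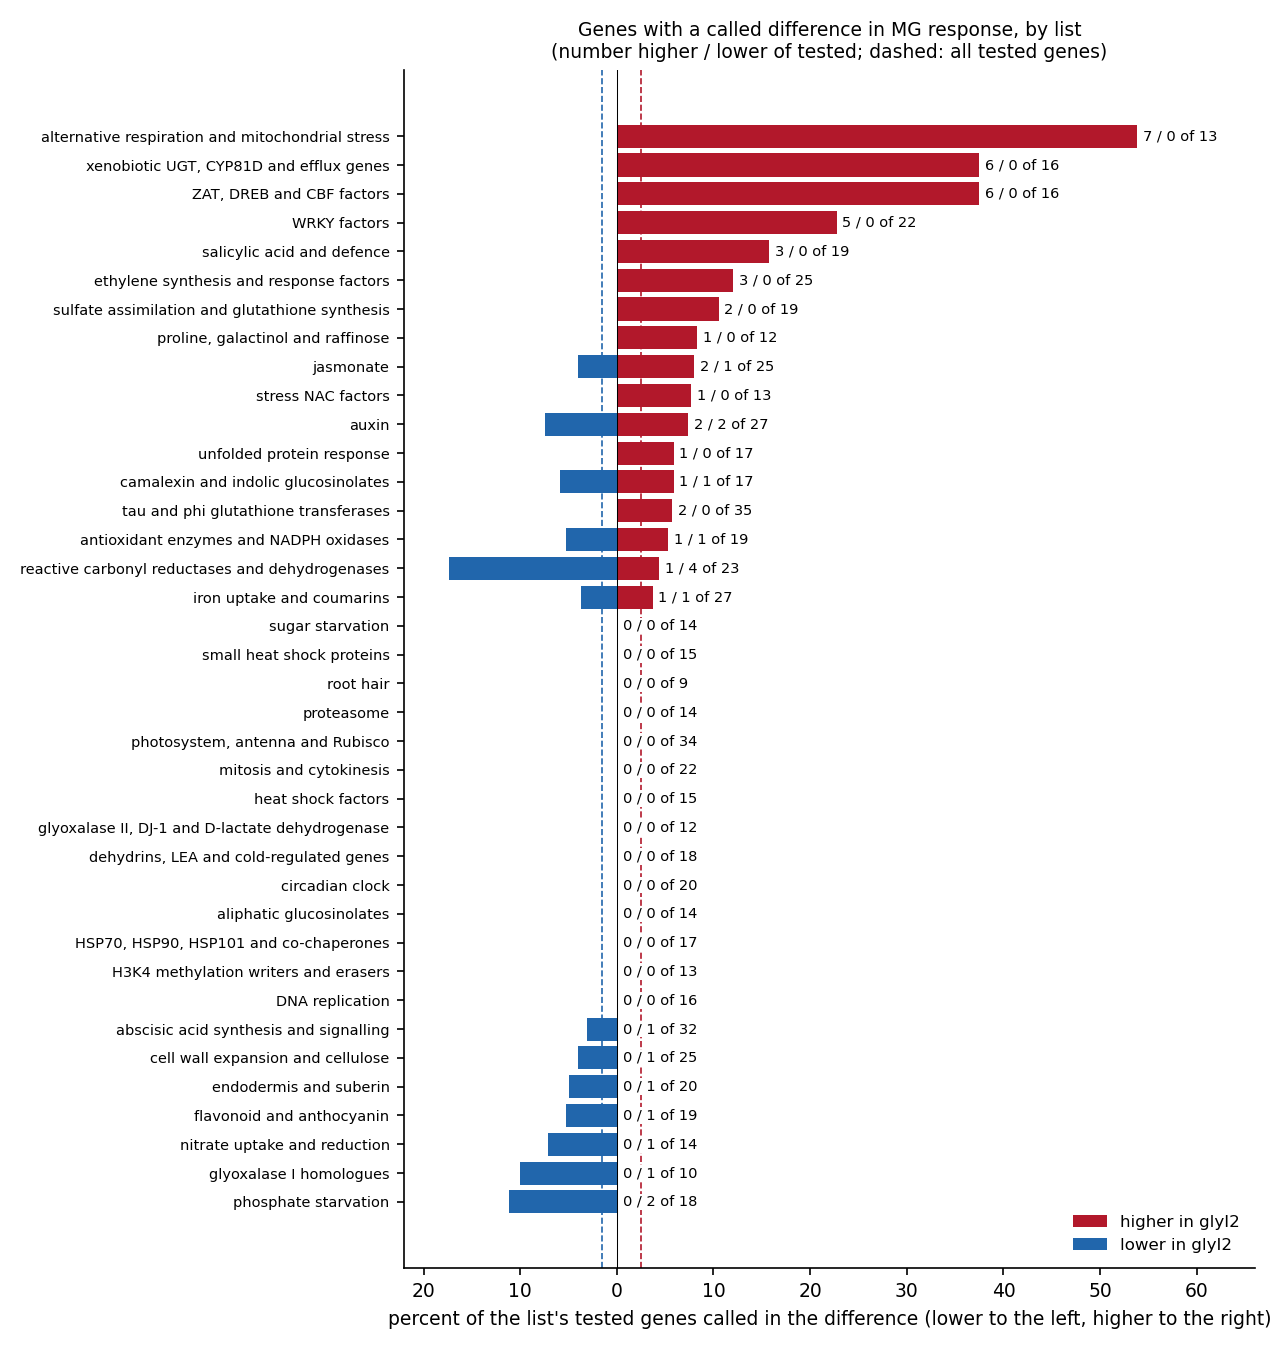
Percent of each list's tested genes with a called difference in MG response, lower in glyI2 to the left and higher to the right, with the numbers higher and lower of those tested. Dashed lines mark the 1.5% and 2.47% of all tested genes. Mitochondrial stress genes (7 of 13), xenobiotic genes (6 of 16) and ZAT, DREB and CBF factors (6 of 16) extend furthest.

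Several lists that responded to MG held no called difference. Over all tested genes MG raised 14.4% in glyI2 and 6.42% in WT, and lowered 14.8% and 4.26%. A larger count in glyI2 is thus by itself not particular to a list. Small heat shock protein genes were raised in 10 of 15 cases in glyI2 (median log2 change 4.18) and 11 in WT (median 3.76), with none called in the difference. HSP17.6A, for example, was raised by 7.15 in glyI2 and 6.15 in WT. HSP70, HSP90 and related chaperone genes were raised in 13 of 17 cases in glyI2 and 11 in WT, again with none called. Of 14 proteasome genes, MG raised 7 in glyI2 and 4 in WT. MG lowered 7 of 16 DNA replication genes in glyI2 and none in WT, and 6 of 22 mitosis genes in glyI2 and 1 in WT. None of their differences was called, and MCM7, a subunit gene of the replicative helicase, came nearest at −0.92 ± 0.28 (adjusted p = 0.0548). Of the sugar starvation genes 9 of 14 were lowered and 1 raised in glyI2, against 1 raised and none lowered in WT, with none called in the difference. No member of the photosystem (34), clock (20), dehydrin and cold-regulated (18), aliphatic glucosinolate (14), heat shock factor (15) or H3K4 methylation (13) lists was called. A p that misses the threshold does not show equal responses, and the SE of these members sets how large a difference could have passed unseen.

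In each of 6 further lists at most 1 gene was called higher and 1 lower. PROT2 (1.06) was the 1 of 12 in the proline, galactinol and raffinose list (8.33%). Among 17 indolic defence genes IGMT2 (1.33) was higher and CYP71A12 lower (11.8%). CYP707A1 (−1.68) was the 1 of 32 in abscisic acid synthesis and signalling (3.12%), and MYB12 (−2.93) the 1 of 19 in the flavonoid list (5.26%). XTH23 was the 1 of 25 cell wall genes (4%) and CYP86A1 the 1 of 20 endodermis and suberin genes (5%), both given above. With 3.97% of all tested genes called, such counts say nothing of the lists as wholes. Each of these calls was lost without at least 1 library, except that of XTH23. PROT2 lost it without glyI2 mock 3, MYB12 without WT MG 2, CYP707A1 without WT mock 3, glyI2 mock 3 or glyI2 MG 1 or 3, and IGMT2 without 10 of the 12 (all but WT mock 2 and WT MG 1).

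The size of the response common to other lines was compared on genes chosen without glyI2 and WT. They were changed by MG in the same direction in both lines carrying the labels OE1 and OE5 (genotype given as 35S::GLYI2 35S::GLYII4). GLYI2 was not above WT there, at 28.1 ± 6.98 CPM in OE1 mock and 51.3 ± 6.72 CPM in OE5 mock, against 61.3 ± 8.23 CPM in WT mock (SD, n = 3). Replicate 3 of OE1 mock and of OE5 mock was low in CCA1 (−0.82 and −1.9 log2 CPM), like glyI2 mock replicate 3. No WT mock library was low, so the choice of genes may not be neutral between glyI2 and WT. The part of this in the medians was not tested. Over the 880 raised genes the median log2 change was 2.15 in glyI2 and 1.90 in WT, the median difference was 0.26, and 532 (60.5%) had the larger change in glyI2. Of these genes 186 were called in the difference (21.1%, against 3.97% of all tested genes), 133 of them higher. Over the 675 lowered genes the medians were −2.79 in glyI2 and −2.58 in WT, the median difference was −0.24, and 390 (57.8%) fell further in glyI2. Of these 74 were called in the difference (11%), 42 of them lower. The per-library score, mean log2 CPM of the raised minus the lowered genes, was 4.68, 4.90 and 4.81 in glyI2 MG and −0.55, 0.15 and −0.64 in glyI2 mock, against 4.40, 4.28 and 4.51 in WT MG and −0.34, −0.33 and −0.10 in WT mock. Under MG every glyI2 library scored above every WT library, while the mock groups overlapped. Both median differences are signed, so differences in opposite directions offset each other. They cannot be set against the median absolute difference of 1.92 among the 823 called genes, which is unsigned and over genes selected for their difference.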

How the data were processed

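Each of the 36 RNA libraries came with a whole-number read count and an FPKM value per gene, both made by the authors and used as deposited. Per the submitters' processing notes, HISAT2 2.0.4 and HTSeq were used with TAIR10, and SICER and ChIPseeker are also named. No source used here says whether reads were counted by strand. The 3 chromatin samples were not analysed here.

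The test was edgeR's quasi-likelihood F test (edgeR 4.0.16, robust, R 4.3.3) on counts after TMM scaling and edgeR's default filter, with 12 groups and no other term. SE values are derived from the F statistic. Log2 CPM used a prior count of 2. FPKM deposited by the authors served only to compare levels between genes. The 279 listed organelle genes held no count.

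The comparison, its 38 gene lists (738 genes, 716 tested) and the rule for named genes were chosen with earlier results of these data known. That rule takes the 12 largest called differences in each direction whose average log2 CPM was 1 or more, every glyoxalase gene, CCA1, LHY and up to 3 members of each list by lowest p. Other genes named, namely further called list members and those of the 10 lowest p in each direction, were chosen after their values were seen.

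Alternatives were DESeq2 1.42.0, RLE scaling, no filter, a fit on the compared groups alone, a replicate block, leaving out 7 libraries low in CCA1, and leaving out each library. Symbols and overlaps came from a gene table of assembly TAIR10.1, matched for 31912 loci.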

Additional observations from a re-analysis of the deposited data

Results flagged for a closer look

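The difference in MG response is itself a test of whether glyI2 and WT responded unequally, so its 823 called genes are listed here together with those where the responses had opposite signs. In 34 genes both responses were called, 1 up and 1 down, and the difference was called as well. Of the genes named by rule, 5 belong to these. The log2 difference, glyI2 minus WT, was −5.93 for GLP4, −4.47 for AT4G04990, −4.11 for PHT1;1 and −2.20 for YUC9, all lowered by MG in glyI2 and raised in WT. It was 3.06 for MDAR3, raised in glyI2 and lowered in WT.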

How the results depend on the processing

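The number of genes called in the difference was 514 to 817 when single libraries were left out, and 819 with RLE scaling, 686 without the filter, 786 in the fit on the compared groups and 1189 with DESeq2. RLE scaling split the calls as 574 higher and 245 lower, and the fit without the 7 low-CCA1 libraries as 788 higher and 322 lower. With the replicate number as a block it was 1447, including all 823. Deviations of same-numbered libraries correlated between −0.212 and 0.511, over 0.1 in 11 of 18 pairs. They were 0.193 to 0.511 between glyI2 MG and glyI2 mock and 0.207 to 0.317 between glyI2 MG and WT mock. Different-numbered libraries of these 2 pairs of groups gave −0.299 to 0.134 and −0.202 to −0.037. Over all pairs of groups different numbers gave −0.579 to 0.527. In each other pair of groups at least 1 same-numbered correlation was below 0.1. All 7 low-CCA1 libraries were replicate 3 of their groups, though replicate 3 of WT mock, WT MG, glyI2 MG, OE1 MG and OE5 MG was not low. They thus included a mock library of glyI2, OE1 and OE5 each, but none of WT mock and no MG library. A factor shared by libraries of the same number was not tested, and the labels name none. The block called GLYI4 (−1.68, edgeR adjusted p = 0.033), DJ1E (−0.80, 0.0142), MCM7 (−0.92, 0.018) and GSTU1 (1.34, 0.0252), which missed the threshold without it. Under it the tau and phi glutathione transferases had 5 higher and 1 lower, glyoxalase I homologues 2 lower, glyoxalase II, DJ-1 and D-lactate dehydrogenase genes 1 lower and DNA replication genes 2 lower. Left-out libraries gave 4507 to 6311 calls for the glyI2 response, 1721 to 2256 for the WT response, 1927 to 3087 for glyI2 against WT under MG and 6 to 9 under mock. The block called 3963 genes under MG. The median differences behind the size of the response were 0.20 to 0.31 for raised and −0.42 to −0.06 for lowered genes. Without the 7 low-CCA1 libraries they were 0.25 and −0.14 on the same genes, which were not chosen anew. Over the named genes and alternatives 2962 results kept their side of the threshold, 253 lost and 59 gained a call, and none of these called values changed sign. Without glyI2 mock replicate 3, 19 of the named genes lost their call. The number was 25 without WT MG replicate 2, the most for any library. In each case the cause was not tested. Depth limits genes with a handful of counts in a group, such as AOX1D and AT5G55150 in mock, whose fitted differences are not firm in size.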

Other observations

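Some called genes were next to each other in the order of tested genes along a chromosome, in which untested genes are skipped. Of the 823, 87 (10.6%) had such a neighbour called in the same direction, in 41 runs of at most 3 genes. Of all tested genes 2.47% were called higher and 1.5% lower. How many neighbours position alone would give was not worked out, so no clustering is read from the 10.6%. One run held WAKL2, WAKL4 and WAKL5, of the wall-associated kinase-like family. WAKL5 averaged 5.59 CPM in glyI2 MG and 0.205 CPM in glyI2 mock, against 0.221 CPM in WT MG and 0.229 CPM in WT mock, a difference of 4.64 ± 1.02 (edgeR adjusted p = 0.0068). WAKL2 differed by 2.09 ± 0.57 (adjusted p = 0.0329) and WAKL4 by 3.2 ± 0.88 (adjusted p = 0.0334). These paralogs may share reads. Another run held UGT74E2 with BT3, which encodes a BTB and TAZ domain protein and differed by 1.36 ± 0.39 (adjusted p = 0.0452).

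The gene of lowest p in the whole difference, picked for that value, was AT1G07520, which the gene table does not name. It averaged 41.3 ± 2.81 CPM in glyI2 MG and 6.12 ± 0.68 in glyI2 mock, against 6.21 ± 1.07 in WT MG and 5.93 ± 0.38 in WT mock (SD, n = 3), a difference of 2.68 ± 0.21 (SE; edgeR adjusted p = 4.96e-09). AT5G40880 followed the same form, at 49.2 CPM in glyI2 MG against 6.08 CPM in WT MG, with a difference of 3.01 ± 0.27 (adjusted p = 9.95e-08). AT3G07000 and AT3G06990 moved in opposite directions: both were raised in glyI2 (2.25 and 1.84) and lowered in WT (−1.73 and −1.87). Their differences were 3.98 ± 0.42 (adjusted p = 7.59e-07) and 3.71 ± 0.41 (adjusted p = 9.36e-07).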
